A study of Arabidopsis thaliana with 8 samples.

Results

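The NAC genes targeted by miR164 are the 6 loci CUC1 (AT3G15170), CUC2 (AT5G53950), NAC1 (AT1G56010), ORE1 (AT5G39610), NAC100 (AT5G61430) and NAC080 (AT5G07680). They were chosen by locus from a list of known targets, and all 6 were found among the 28775 genes of the mRNA tables. Their transcript levels were compared between inflorescences of the Arabidopsis wild type Col-0 and of janus-2. The allele janus-2 is a hypomorphic CRISPR/CAS9 allele of JANUS, a homolog of the splicing factor SF3B4, and carries a small exonic deletion. It is 1 line in the Col-0 background that was backcrossed to Col-0, and the plants are small and sterile. The labels call this genotype janus, and the allele name is that of the study. All plants grew at 22 °C with 16 h of light and 8 h of dark, and no treatment was given. There were 2 mRNA libraries and 2 small RNA libraries of each genotype, 8 in all, each labelled as its own sample. Whether mRNA and small RNA libraries came from the same RNA is not given in the sources used here.

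NAC proteins are plant transcription factors that share a DNA-binding NAC domain. miR164 pairs with a site in the coding sequence of each of these mRNAs and guides their cleavage, which keeps the domain and timing of their expression narrow. In flowers the best known outcome is the control of organ boundaries. Plants with too much CUC1 or CUC2, or too little miR164, form altered numbers of petals or misplaced boundaries, and plants that lack CUC genes form fused organs. The other targets act elsewhere, NAC1 in auxin-dependent lateral root formation, ORE1 in age-dependent leaf senescence and cell death, and NAC080, also named NAC4, in cell death at sites of infection. NAC100 is less well characterized.

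The mRNA libraries held between 56360882 and 65578130 counts on genes, so that a floor of 3 counts was between 0.0457 and 0.0532 CPM (counts-per-million units). JANUS (AT2G18510) had 3107 and 3579 counts in Col-0 against 1158 and 1141 in janus-2, and the log2 fold change was -1.53 (standard error 0.066, edgeR adjusted p = 4.26e-214). All floral identity markers (AP1, AP3, PI, AG, SEP3 and LFY) were above the floor in every library. Their summed level was between 806 and 813 CPM in Col-0 and 582 CPM in both janus-2 libraries. By the rule given below, 2 of the 6 were lower, AP3 and PI (33.3%, beside 27.2% of all genes tested). All 7 pollen markers and all 10 tapetum markers were lower in janus-2. The summed level of the pollen markers was between 4147 and 4163 CPM in Col-0 and between 8.69 and 11.0 CPM in janus-2. That of the tapetum markers was between 637 and 653 CPM in Col-0 and between 87.4 and 90.9 CPM in janus-2. Carpel and ovule markers summed to between 212 and 215 CPM in Col-0 and between 181 and 183 CPM in janus-2. Of these, 2 of the 6 were lower, SHP2 and INO (33.3%, beside 27.2% of all genes tested). The sperm cell histone gene MGH3 had 0 counts in both janus-2 libraries, and DYT1, an early tapetum regulator, had 0 and 1. In such bulk samples, fewer cells of a type and less RNA per cell cannot be told apart.

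The 6 genes did not move together in janus-2. CUC1 rose about 2.95-fold, NAC100 fell to 0.0582 of its Col-0 level, NAC080 fell to 0.315 of it and NAC1 to 0.663 of it, while CUC2 and ORE1 did not pass the test. Thus 1 of the 6 genes was higher and 3 were lower at an adjusted p of at most 0.05 with a fold change of at least 1.5, by the quasi-likelihood test of edgeR, adjusted over all genes by Benjamini-Hochberg. Among the 22990 genes that passed the filter on low counts, 18.5% were higher and 27.2% were lower by the same rule. All 6 genes passed that filter, and their median log2 fold change was -0.29, against -0.019 for all genes tested. These counts describe the 6 genes, and no test set them against other genes.

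**Figure D1:**
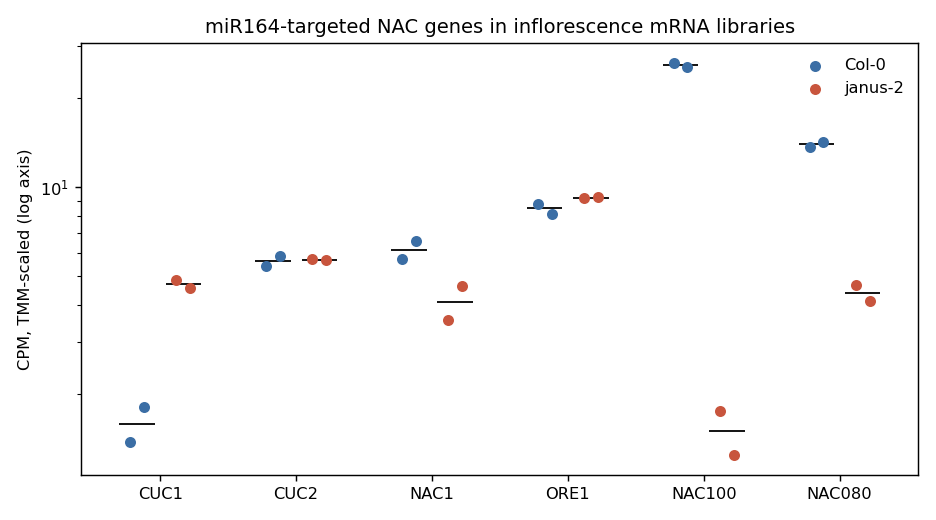
Level of each miR164-targeted NAC gene in the 4 mRNA libraries, in TMM-scaled CPM on a log axis. Each point is 1 library and each bar the mean of 2. NAC100 lay at 25.6 and 26.3 CPM in Col-0 and at 1.24 and 1.76 CPM in janus-2, while CUC1 lay at 1.38 and 1.80 CPM in Col-0 and at 4.58 and 4.86 CPM in janus-2.

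CUC1 and CUC2 are the boundary genes among the targets, and they are close relatives with overlapping functions in separating organs and in forming the shoot meristem. CUC1 had 78 and 119 counts in Col-0 replicates 1 and 2, and 307 and 269 counts in janus-2 replicates 1 and 2. Both janus-2 libraries were thus well above both Col-0 libraries. Scaled by the trimmed mean of M values (TMM), its level was 1.59 ± 0.301 CPM in Col-0 against 4.72 ± 0.194 CPM in janus-2 (SD, n = 2). The log2 fold change was 1.56 (standard error 0.23, edgeR adjusted p = 4.15e-21). It lay between 1.39 and 1.77 when each library was left out in turn.

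CUC2 had 307 and 388 counts in Col-0 and 362 and 333 counts in janus-2. Both janus-2 values, 5.73 and 5.67 CPM, lay between the Col-0 values of 5.42 and 5.88 CPM. The log2 fold change of CUC2 was 0.011 (standard error 0.16, edgeR adjusted p = 0.934), with a 95% interval from -0.30 to 0.32 by DESeq2. A change of CUC2 as large as that of CUC1 lies outside this interval. The reads of CUC1 were 0.254 and 0.307 times those of CUC2 in Col-0 and 0.848 and 0.808 times in janus-2. This ratio is taken within each library and does not depend on the scaling. Whether reads shared by these related genes were counted is not given in the sources used here.

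NAC100 showed the largest difference of the 6 genes. It had 1489 and 1689 counts in Col-0, the most of the 6 in both libraries, and 111 and 73 counts in janus-2, the fewest of the 6 in both. Its level was 25.9 ± 0.505 CPM in Col-0 against 1.5 ± 0.363 CPM in janus-2 (SD, n = 2). The level in Col-0 was thus 17.2-fold that in janus-2, and the log2 fold change was -4.10 (standard error 0.15, DESeq2 adjusted p = 5.42e-173; that of edgeR was too small for the software to write). When each library was left out in turn, it lay between -4.38 and -3.88. Of all 22990 genes tested, 1616 had a lower log2 fold change than NAC100.

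NAC080, whose product promotes cell death at infection sites, was also strongly reduced. It had 776 and 941 counts in Col-0 and 295 and 242 counts in janus-2, without overlap. Its level was 13.98 ± 0.388 CPM in Col-0 against 4.40 ± 0.386 CPM in janus-2 (SD, n = 2), and the log2 fold change was -1.67 (standard error 0.13, edgeR adjusted p = 1.89e-65). Within a library, the reads of NAC100 were 1.92 and 1.79 times those of NAC080 in Col-0 and 0.376 and 0.302 times in janus-2. The fall of NAC100 was thus larger than that of NAC080 under any scaling of these libraries. The fall of both genes went with that of the pollen and tapetum markers, whose summed levels are given above. The part of these cell types in the falls of NAC100 and NAC080 was not tested.

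NAC1 transmits auxin signals in root development. It had 325 and 434 counts in Col-0 and 225 and 273 counts in janus-2. The levels were 6.16 ± 0.590 CPM in Col-0 against 4.11 ± 0.771 CPM in janus-2 (SD, n = 2), and the groups did not overlap. The log2 fold change of -0.59 (standard error 0.18, edgeR adjusted p = 1.94e-06) corresponds to a level in Col-0 1.51-fold that in janus-2, just past the fold threshold of 1.5. It missed that threshold without Col-0 replicate 2 (-0.49) and without janus-2 replicate 1 (-0.40). With all libraries, the DESeq2 adjusted p of NAC1 was larger than that of edgeR, at 0.00188. NAC1 overlaps 2 genes in the annotation, the protein-coding gene AT1G56000 and the long non-coding RNA gene AT1G08087. The latter is not among the counted genes, so its reads could not be examined. AT1G56000 had 701 and 836 counts in Col-0 against 751 and 666 in janus-2, and the log2 fold change was -0.11 (edgeR adjusted p = 0.193).

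ORE1 promotes leaf senescence, and miR164 holds it low in young leaves. It had 499 and 538 counts in Col-0 and 580 and 544 counts in janus-2. The levels were 8.82 and 8.15 CPM in Col-0 and 9.18 and 9.27 CPM in janus-2. The janus-2 libraries lay just above both Col-0 libraries, by less than the gap between the Col-0 libraries. The log2 fold change was 0.12 (standard error 0.13, edgeR adjusted p = 0.208), with a 95% interval from -0.13 to 0.37 by DESeq2.

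Because the members changed in opposite directions, the make-up of their joint reads differed between genotypes. The 6 genes together took 61.4 and 62.3 CPM in Col-0 and 29.8 and 29.5 CPM in janus-2. NAC100 held 42.9% (95% exact binomial interval 41.2% to 44.5%) and 41.1% (39.6% to 42.6%) of their reads in Col-0. In janus-2 it held 5.90% (4.88% to 7.07%) and 4.21% (3.31% to 5.26%). ORE1 held the largest share in janus-2, with 30.9% and 31.4%, against 14.4% and 13.1% in Col-0. CUC1 went from 2.25% and 2.90% of these reads to 16.3% and 15.5%. CUC2 went from 8.84% and 9.44% to 19.3% and 19.2%, although its own level was nearly the same. The intervals cover counting error only.

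**Figure D2:**
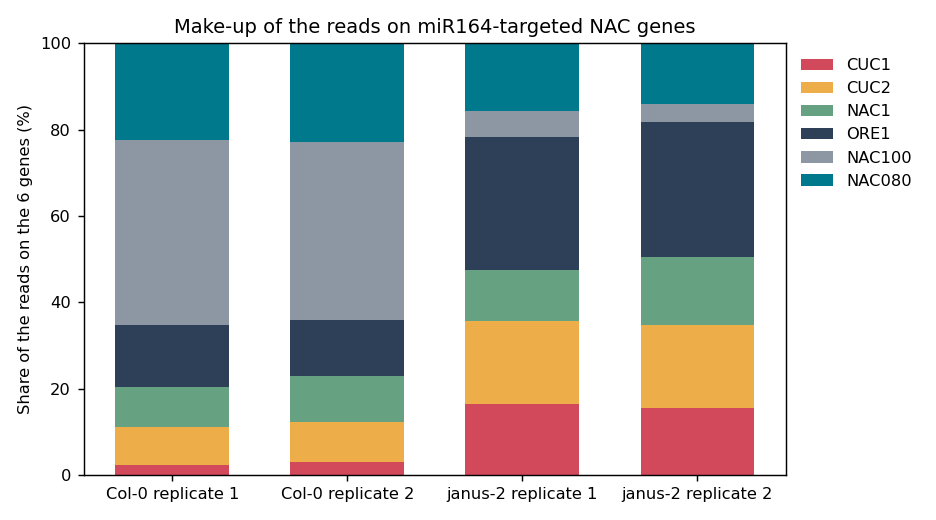
Share of the reads on the 6 miR164-targeted NAC genes that each gene held, in percent, with 1 bar per mRNA library. NAC100 takes 42.9% and 41.1% of the Col-0 bars and 5.90% and 4.21% of the janus-2 bars, and ORE1 is the largest part of both janus-2 bars.

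Levels of different genes were compared per kilobase of gene, where the length is the annotated span with introns, so that genes with long introns are understated. In Col-0 the order was NAC100 (15.0 ± 0.293 CPM per kb, SD, n = 2), NAC080 (7.49 ± 0.208), ORE1 (5.60 ± 0.310), CUC2 (2.63 ± 0.150), NAC1 (2.27 ± 0.218) and CUC1 (0.871 ± 0.165). No neighbours in this order overlapped between libraries. In janus-2 the order was ORE1 (6.09 ± 0.0422 CPM per kb), CUC2 (2.65 ± 0.0181), CUC1 (2.58 ± 0.106), NAC080 (2.35 ± 0.206), NAC1 (1.51 ± 0.285) and NAC100 (0.869 ± 0.210). Here CUC2 and CUC1 overlapped and the other neighbours did not. CUC1 and NAC080 were barely apart, at 2.509 in the lower CUC1 library and 2.501 in the higher NAC080 library. Their order thus rests on a small gap and on the gene spans used. NAC100 thus went from the first to the last place, and CUC1 from the last place to a level that overlapped that of CUC2.

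The mature miRNA was set beside its targets. The small RNA tables hold 5 entries of the family, miR164a, the 2 arms of miR164b and the 2 arms of miR164c. The libraries held between 1950664 and 2160372 counts on miRNAs, and a floor of 3 counts corresponded to between 1.39 and 1.54 CPM. The entry miR164a had 5697 and 7878 counts in Col-0 against 7358 and 8716 in janus-2. It took 0.264% and 0.386% of all miRNA counts in Col-0 against 0.350% and 0.447% in janus-2. The entry miR164b-5p held between 0.404% and 0.612% more counts than miR164a in each library. These entries thus stand for nearly the same reads and are not independent. The entry miR164c-5p had between 5.13% and 8.59% of the counts of miR164a.

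None of the miR164 entries passed the test in either direction. By the rule for miRNAs, an adjusted p of at most 0.05 in edgeR with no fold threshold, 0 of the 5 entries were called. Among the 304 entries tested, 18.1% were higher and 14.1% were lower. At an unadjusted p under 0.05, 1 of the 5 entries passed in edgeR, and with DESeq2 0 were called. That entry was the passenger arm miR164c-3p (edgeR unadjusted p = 0.0356), at 6 to 15 counts. The share of all entries under this unadjusted p is not given here. The level of miR164a was 3055 ± 873 CPM in Col-0 against 4248 ± 765 CPM in janus-2 (SD, n = 2). Its log2 fold change was 0.48 (standard error 0.36, edgeR adjusted p = 0.237), with a 95% interval from -0.32 to 1.09 by DESeq2. Both janus-2 values, 3707 and 4789 CPM, were above both Col-0 values, 2438 and 3673 CPM, in the first case by far less than the spread within Col-0. This separation depended on the TMM scaling. As a share of all miRNA counts, janus-2 replicate 1 (0.350%) lay below Col-0 replicate 2 (0.386%).

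**Figure D3:**
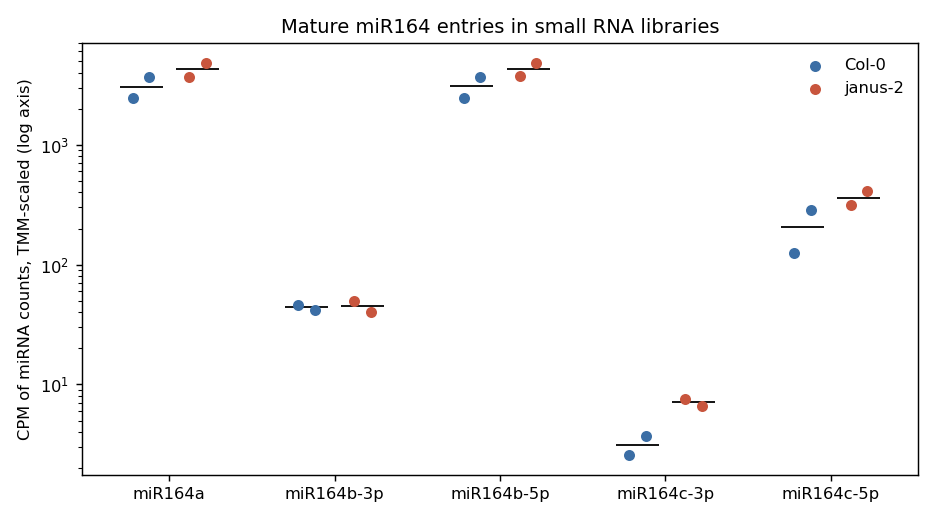
Level of each mature miR164 entry in the 4 small RNA libraries, in TMM-scaled CPM of miRNA counts on a log axis. Each point is 1 library and each bar the mean of 2. For miR164a the Col-0 libraries lay at 2438 and 3673 CPM and the janus-2 libraries at 3707 and 4789 CPM.

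The entries of miR164c, the member known for the control of petal number, were similar. miR164c-5p had 292 and 616 counts in Col-0 and 622 and 749 counts in janus-2, and the log2 fold change was 0.81 (standard error 0.46, edgeR adjusted p = 0.203). Col-0 replicate 1 was far below the other libraries. The passenger arm miR164c-3p had 6 and 8 counts in Col-0 and 15 and 12 counts in janus-2, and the log2 fold change was 1.16 (standard error 0.86, edgeR adjusted p = 0.0976). The passenger arm miR164b-3p had 107 and 90 counts in Col-0 and 99 and 73 counts in janus-2, with overlapping groups. Its log2 fold change was 0.037 by edgeR (adjusted p = 0.933) and -0.052 by DESeq2 (standard error 0.42), so that its direction was not determined.

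Leaving out single libraries moved these entries. Without Col-0 replicate 2, Col-0 replicate 1 was the only wild-type library. The log2 fold changes were then 0.76 for miR164a and miR164b-5p and 1.497 for miR164c-5p. Without Col-0 replicate 1 those of miR164a and miR164c-5p were 0.23 and 0.35. The TMM scaling of small RNA takes most miRNAs as unchanged. The median over all tested entries, on the log2 scale, moved from 0.11 with TMM to -0.23 with scaling by all aligned reads, and that of miR164a moved with it from 0.48 to 0.14. Relative to the median of all entries, miR164a was thus 0.36 higher with TMM and 0.37 higher with all aligned reads. This difference depended on single libraries, and was 0.12 without Col-0 replicate 1, 0.59 without Col-0 replicate 2, 0.51 without janus-2 replicate 1 and 0.22 without janus-2 replicate 2.

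**Figure D4:**
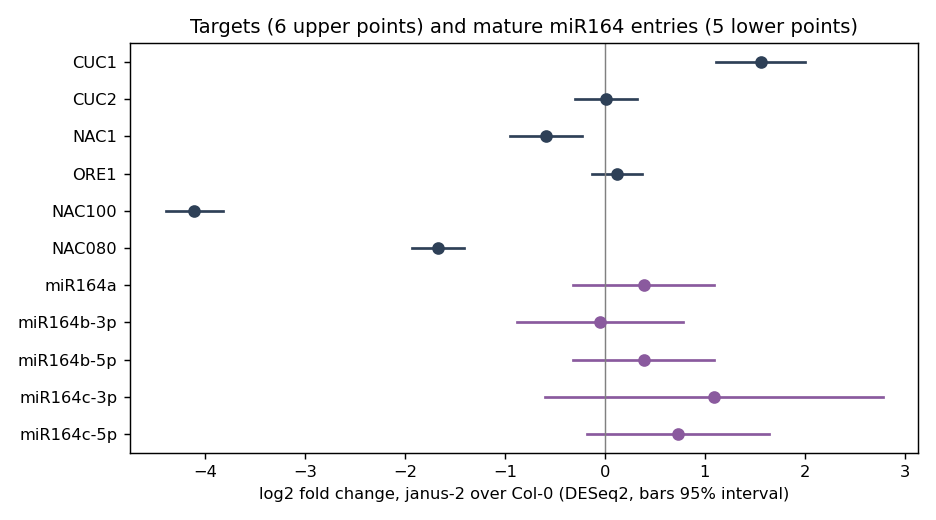
Log2 fold change of the 6 NAC genes (upper points, mRNA) and of the 5 mature miR164 entries (lower points, small RNA), janus-2 over Col-0, as estimated by DESeq2 with 95% intervals. The intervals of all miR164 entries hold 0, while those of CUC1, NAC1, NAC100 and NAC080 do not.

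Transcripts of the MIR164 genes were at the limit of detection in the mRNA libraries. MIR164A (AT2G47585) had 1 count in each Col-0 library and 0 in both janus-2 libraries, and MIR164C (AT5G27807) had 1 count in 1 Col-0 library only. MIR164B (AT5G01747) had 10 and 7 counts in Col-0 and 1 and 8 counts in janus-2, with overlapping groups. None of these genes passed the filter on low counts, and no difference was detectable at this depth.

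CUC1 and CUC2 work with a set of boundary and meristem genes. Of the 16 such genes listed, 15 were tested, 9 were higher, 3 were lower and 3 did not pass, with a median log2 fold change of 0.91. Thus 60% of the tested genes were higher and 20% lower, beside 18.5% and 27.2% of all genes. CUC3 (AT1G76420), the third CUC gene, lacks a miR164 site and was singled out after its values were seen. It had 368 and 396 counts in Col-0 and 886 and 779 counts in janus-2, and the log2 fold change was 1.13 (standard error 0.12, edgeR adjusted p = 1.44e-35). CUC3 thus rose in the same direction as CUC1, while CUC2 did not pass the test. Of the called genes that averaged 1 CPM or more without overlap, the meristem homeobox gene KNAT6 rose most, from 20.3 ± 1.53 to 75.8 ± 0.486 CPM (SD, n = 2). It was followed by LSH3, with 176 and 244 counts in Col-0 against 563 and 558 in janus-2. The log2 fold change of LSH3 was 1.43 (standard error 0.16, edgeR adjusted p = 1.37e-34). The lateral organ boundaries gene JLO had a log2 fold change of 1.25 (standard error 0.21). The largest falls were those of the GATA factor gene HAN (-1.42, standard error 0.15) and the MYB gene LOF1 (-1.28, standard error 0.13), both of which also mark boundaries. Apart from CUC3, these genes were named on the condition that their groups did not overlap.

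Regulators of MIR164 and CUC genes were examined next. Of 7 genes tested, 2 were higher and 0 were lower, with a median log2 fold change of 0.36. Thus 28.6% were higher and 0% lower, beside 18.5% and 27.2% of all genes. DPA4, which represses CUC2 in leaf margins, had a log2 fold change of 0.68 (standard error 0.12, edgeR adjusted p = 4.32e-15). TCP10, of the TCP group that limits CUC expression, had a log2 fold change of 0.73 (standard error 0.043, edgeR adjusted p = 1.85e-116). The other TCP genes of the list were not called, with log2 fold changes of 0.18 for TCP2, 0.10 for TCP3, -0.25 for TCP4 and 0.49 for TCP24. With no fold threshold, 4 of the 7 genes were higher and 1, TCP4, was lower, beside 9324 and 9778 of the 22990 genes tested. These TCP genes were added after their values were seen.

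The regulators of ORE1 were examined beside it. Of 8 genes tested, 5 were higher, 1 was lower and 2 did not pass, and the median log2 fold change was 0.68. Thus 62.5% were higher and 12.5% lower, beside 18.5% and 27.2% of all genes. The largest rise was that of NLA, whose product marks the ORE1 protein for breakdown together with that of PHO2. NLA went from 9.61 ± 0.700 to 48.4 ± 0.982 CPM (SD, n = 2), and the log2 fold change was 2.33 (standard error 0.080). That of PHO2 was 0.78 (standard error 0.030). The phytochrome-interacting factor gene PIF5, an activator of senescence, rose by 1.58 on the log2 scale (standard error 0.044). The ethylene signalling genes EIL1 and EIN2 had log2 fold changes of 0.90 (standard error 0.050) and 0.59 (standard error 0.040). The latter was so close to the threshold that it missed it with table totals (0.57), with upper quartiles (0.52) and without Col-0 replicate 1 (0.58). ABI5 of abscisic acid signalling fell by 0.60 on the log2 scale (standard error 0.084), and missed the threshold without Col-0 replicate 1 (-0.56) and without janus-2 replicate 1 (-0.57).

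Of the 9 tested targets of ORE1, 3 were higher and 0 were lower, with a median log2 fold change of 0.37. Thus 33.3% were higher and 0% lower, beside 18.5% and 27.2% of all genes. The nuclease gene BFN1 went from 25.1 ± 0.0256 to 51.7 ± 0.562 CPM (SD, n = 2), and the log2 fold change was 1.04 (standard error 0.062). The NAC gene VNI2 had a log2 fold change of 1.18 (standard error 0.061). The chlorophyll breakdown gene PAO had 0.65 (standard error 0.045), and missed the fold threshold with upper quartiles (0.58). The other chlorophyll breakdown genes of the list had negative values short of the fold threshold, -0.50 for NYC1 (edgeR adjusted p = 3.4e-68) and -0.16 for SGR1 (edgeR adjusted p = 0.000229). The ethylene synthesis gene ACS2 had a log2 fold change of -0.57 and did not pass, but 1 of the 9 genes, ACS2, was lower with upper quartiles (-0.63) and without janus-2 replicate 2 (-0.70). With no fold threshold, 5 of the 9 were higher, beside 9324 of the 22990 genes tested. By that rule 3 were lower, namely NYC1, SGR1 and ACS2, beside 9778 of the genes tested. These 3 genes lie outside the rule for named genes and were chosen after their values were seen.

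Partners and targets of NAC1 and NAC080 went in both directions. Of 6 genes tested, 2 were higher and 3 were lower, with a median log2 fold change of -0.30. Thus 33.3% were higher and 50% lower, beside 18.5% and 27.2% of all genes. The auxin-induced protease gene AIR3, a target of NAC1, rose by 2.0 on the log2 scale (standard error 0.060), while NAC1 itself was lower. SINAT5, whose product marks the NAC1 protein for breakdown, fell by 0.87 (standard error 0.13). The defence genes LURP1, WRKY40 and WRKY54 are reported to be repressed by NAC080. LURP1 had 87 and 137 counts in Col-0 and 19 in both janus-2 libraries, and the log2 fold change was -2.53 (standard error 0.42). WRKY54 had 287 and 352 counts in Col-0 and 34 in both janus-2 libraries, and the log2 fold change was -3.22 (standard error 0.27). WRKY40 rose from 100 and 145 counts to 460 and 354, and the log2 fold change was 1.74 (standard error 0.20). These genes thus did not share a direction.

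The annotation names 95 other NAC genes in the tables, and 78 of them were tested. Of these, 24 were higher and 15 were lower (30.8% and 19.2%, beside 18.5% and 27.2% of all genes), with a median log2 fold change of 0.10. NAC100 had a lower log2 fold change than all but 3 of the 78, and NAC080 than all but 8. CUC1 had a higher one than 71 of the 78. Rises and falls of this size were thus also found among other NAC genes.

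**Figure D5:**
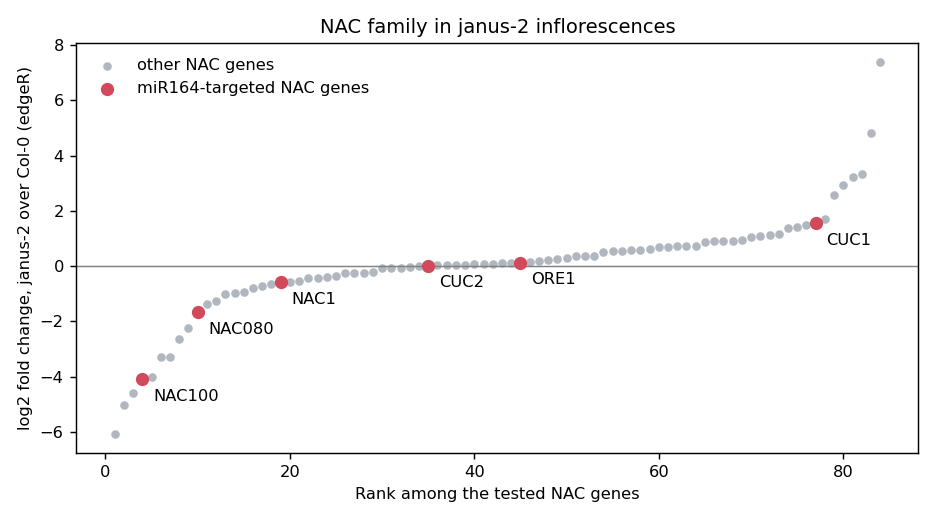
Log2 fold change (edgeR, janus-2 over Col-0) of all tested NAC genes in order of rank, with the 6 miR164-targeted genes in red and the 78 other NAC genes in grey. The targets lie between NAC100 at -4.10 and CUC1 at 1.56, with other NAC genes below and above them.

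For each target, the other NAC gene with the most similar pattern was found from centred log2 CPM over the 4 mRNA libraries, as the smallest Euclidean distance among 78 genes. With 4 libraries in 2 genotypes this mostly matches the size of the difference. The nearest gene to CUC1 was NAC036 (AT2G17040, distance 0.159), which had 54 and 79 counts in Col-0 against 238 and 191 in janus-2. The nearest to NAC100 was NAC025 (AT1G61110, distance 0.708), with 6686 and 7694 counts in Col-0 against 280 and 307 in janus-2. The nearest to NAC080 was NST1 (AT2G46770, distance 0.403), a regulator of secondary walls that acts in the anther endothecium, with a log2 fold change of -1.28. For CUC2, NAC1 and ORE1 they were NTL9 (distance 0.0483), NTL8 (0.104) and RD26 (0.0486).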

How the data were processed

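Total RNA from inflorescences was sequenced as mRNA and as small RNA. The authors deposited raw counts, 1 table per library with 28775 genes or 427 mature miRNAs. The submitters' processing notes name Bowtie, HTSeq and TAIR10. Settings, annotation and the use of strand are not given in the sources used here. Reads assigned to no feature did not enter the library sizes: in mRNA, reads outside genes (1.11% to 1.13% of aligned reads) and ambiguous reads (2.15% to 2.34%), and in small RNA, reads outside miRNAs (96.4% to 97.1%) and ambiguous reads (0.0652% to 0.0825%). Each assay was fitted over all entries and its 4 libraries with edgeR 4.0.16 (filterByExpr, TMM, glmQLFit, glmQLFTest) in R 4.3.3. Log2 fold changes are those of edgeR. Standard errors and 95% intervals are those of DESeq2 1.42.0. The fits were tested on simulated data. Figures were drawn with matplotlib 3.10.9.

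The study compared miRNAs with EdgeR after TMM and genes with Ballgown, at a fold change of 1.5 for genes. The tables give no pairing of replicates beyond their number. The p-values test the genotype difference against variation estimated from 2 biological replicates per genotype, with information shared over all entries of an assay. The replicates differed by more than sampling noise. For Col-0 and janus-2, chi-square over its degrees of freedom was 2.34 and 2.51 in mRNA, and 145 and 53.5 in small RNA. The common coefficient of variation was 2.26% in mRNA and 25.5% in small RNA. The members, gene lists and tests were chosen with earlier results of these data known. Named were all members, miR164 entries and MIR164 genes, all called genes of lists of up to 9 genes, and for longer lists up to 3 called genes in each direction whose mean reached 1 CPM and whose groups did not overlap. Symbols, gene spans and the NAC list came from RefSeq's TAIR10.1 annotation, which matched 28009 of the 28775 genes. It does not give 3 listed genes the names used here (JANUS, SINAT5 and A9), and these were kept by locus. The context lists hold 46 genes, 3 of them NAC genes. Sequences of miR164, its target sites and the NAC proteins were not analysed here. Alternatives changed the normalization, the tool, the filter, the fold threshold, the replicate block and each library in turn.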

Additional observations from a re-analysis of the deposited data

How the results depend on the processing

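The calls of CUC1, NAC100 and NAC080 and the level of JANUS kept their direction and their side of the threshold in all 12 alternatives. ORE1 did not pass in any, at 0.054 to 0.18. NAC1 kept its direction but missed the fold threshold in 3 alternatives, without Col-0 replicate 2, without janus-2 replicate 1 and at a fold change of at least 2, so that 2 in place of 3 members were lower. CUC2 changed sign with table totals (-0.0052), with upper quartiles (-0.058) and without Col-0 replicate 1 (-0.043), and lay between -0.043 and 0.071 when single libraries were left out. The entry miR164b-3p changed sign with DESeq2 size factors (-0.052) and the DESeq2 test (-0.052), table totals (-0.15), upper quartiles (-0.29), all aligned reads (-0.32), without Col-0 replicate 2 (-0.064) and without janus-2 replicate 1 (-0.16), and lay between -0.16 and 0.16 when single libraries were left out. When single libraries were left out, miR164a lay between 0.23 and 0.76 and miR164c-5p between 0.35 and 1.497. With a fold change of at least 2, 12 context genes and 13 other NAC genes were higher, in place of 21 and 24. With no fold threshold, 12 and 23 were lower, in place of 7 and 15. Over all genes, 9324 were then higher and 9778 lower, and 2194 were higher at a fold change of at least 2. For all miRNAs, the DESeq2 test called 36 higher in place of 55, as did the fit without janus-2 replicate 1. Upper quartiles called 67 lower and all aligned reads 85, in place of 43. Same-numbered libraries share only a number, and their deviations had a correlation of -0.015 in mRNA and -0.15 in small RNA. With the replicate block, 1 member was higher and 3 were lower, as without it, and 0 miR164 entries were called. Crossing the small RNA numbers was added after the data were seen, and 58 miRNAs were then higher and 50 lower, with 0 miR164 entries among them. The causes of these differences were not tested. Depth limits the MIR164 genes, which lay at 10 counts or fewer, and miR164c-3p, at 6 to 15 counts.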
